A study of Mus musculus with 6 samples.

Results

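The miR-29 family was represented in the small RNA counts by 7 mature miRNAs, namely every miRNA whose name starts with mmu-miR-29a-, mmu-miR-29b- or mmu-miR-29c-, out of 1364 miRNAs in the table. There were 3 from the 3p arm of the hairpin (mmu-miR-29a-3p, mmu-miR-29b-3p and mmu-miR-29c-3p) and 4 from the 5p arm (mmu-miR-29a-5p, mmu-miR-29b-1-5p, mmu-miR-29b-2-5p and mmu-miR-29c-5p). The prefix mmu-, for mouse, is left out hereafter. The libraries came from the nucleus accumbens (NAc), a striatal region of the reward circuit, of adult male C57BL/6N mice aged 7 to 8 weeks. In the conditioned place preference (CPP) model, mice of the morphine group received 10 mg/kg morphine and saline by intraperitoneal injection in alternating morning and afternoon sessions on 6 days, and mice of the saline group received saline. Tissue was taken 0.5 h after the preference test on day 7, with core and shell of the NAc not separated. There were 3 libraries per group, for which the sample records name 6 mice per group and a figure legend of the study names 1 mouse per library, so p-values measure the spread between these libraries, which may be technical. The question asked of these data was which members of the family, and which arms, differed between the morphine and the saline group.

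miRNAs are cut from hairpin transcripts, and the arm that is loaded into an Argonaute protein, the guide, directs the silencing of mRNAs that pair with its seed. The other arm, the passenger, is usually degraded. The miR-29 guides are the 3p arms, which are abundant in mature neurons and astrocytes, increase during brain maturation and are known for repressing the DNA methyltransferases Dnmt3a and Dnmt3b, collagens and other matrix genes, and pro-apoptotic BH3-only genes.

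The mature sequences show what the members share and where they part. All 7 had a mature sequence in the RefSeq table (GRCm38.p6), printed here 5′ to 3′ with the seed, bases 2 to 8, in capitals. The 3p arms come first and are shown because the members of the family target through them.
miR-29a-3p: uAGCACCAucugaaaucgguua
miR-29b-3p: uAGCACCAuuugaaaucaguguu
miR-29c-3p: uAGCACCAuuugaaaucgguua
The 3 guides had the same seed, AGCACCA, and no other mature miRNA of the RefSeq table had it. With positions counted from 1 at the 5′ end, miR-29a-3p and miR-29c-3p differed by the single substitution C10U. miR-29a-3p and miR-29b-3p differed by C10U, G18A, U21G and A22U, and miR-29b-3p had 1 further base, for a length of 23 against 22. miR-29b-3p was the only member that ended in AGUGUU, a hexamer known as a nuclear import element of miR-29b. This ending was found in 2 of 1679 mature miRNAs. How many mismatches the authors' comparison with miRBase allowed is not given in the sources used here, so reads of miR-29a-3p and miR-29c-3p with an error at base 10 may have been counted for either.
The 5p arms are shown because the changes described next lie in them.
miR-29a-5p: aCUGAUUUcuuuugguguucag
miR-29b-1-5p: gCUGGUUUcauauggugguuua
miR-29b-2-5p: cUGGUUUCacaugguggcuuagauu
miR-29c-5p: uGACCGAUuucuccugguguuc
Each 5p arm had a seed of its own, and none of these was shared with another miRNA of the count table. miR-29b-1-5p and miR-29b-2-5p are the same arm of the pair of miR-29b hairpins. Shifted by 1 base, they were identical at 19 of 21 positions and differed by U11C and U19C of miR-29b-1-5p. The first base was U in the 3 guides and in miR-29c-5p, A in miR-29a-5p, G in miR-29b-1-5p and C in miR-29b-2-5p.

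The 4 hairpins form 2 clusters. Mir29b-2 (chr1:195037040-195037120) and Mir29c (chr1:195037547-195037634) lie on the plus strand with 426 bases between them, in exon 3 of a retained-intron transcript of their host gene A330023F24Rik, and opposite an exon of Cd46. Mir29a (chr6:31062660-31062747) and Mir29b-1 (chr6:31063023-31063093) lie on the minus strand with 275 bases between them. Mir29b-1 overlaps the first exon of the lincRNA Gm27019, while Mir29a lies outside other annotated genes of GENCODE vM21 (GRCm38). Both miR-29b hairpins give the same miR-29b-3p, so its counts do not tell the clusters apart. The 5p arms differ in sequence between the clusters, but the mismatches allowed in counting are not given here either.

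The total count was between 4183333 and 9842050 per library, and every member had at least 10 counts in every library. Levels are given as CPM, which scales each count to the size of its library, corrected by TMM for differences in composition between libraries. A level of 3 counts, the floor of detection, was 0.549 CPM or less in every library. Saline replicate 2 stood apart, with Spearman correlations of 0.869 and 0.874 to the other saline libraries and 0.907 to 0.926 to the morphine libraries. The quasi-likelihood test of edgeR was fitted over all 1364 miRNAs. The study called a miRNA differentially expressed (DEmiRNA) where its log2 fold change was 0.58 or more in size and its unadjusted p did not exceed 0.05. These criteria were used for every count of called miRNAs unless an adjusted p is named. Applied to the edgeR fit, they called 9.68% of all miRNAs higher with morphine training and 9.68% lower. The study's own calls by these thresholds differed in number. Marker miRNAs of other cell types were read against these shares. The summed level of the endothelial pair miR-126a-3p and miR-126a-5p was 1485 to 5002 CPM in saline and 10984 to 16264 CPM in morphine libraries. Of the 2, only miR-126a-3p was called higher, with a mean of 2583 CPM in the saline and 13860 CPM in the morphine group. The mean of miR-126a-5p went the other way, from 124 to 63.5 CPM, with overlapping groups and no call. The sum for 4 microglial and leukocyte miRNAs was 155 to 272 against 854 to 1069 CPM, with 1 of 4, miR-146a-5p, called higher. miR-146a-5p made up most of this sum, with a mean of 198 CPM in the saline and 966 CPM in the morphine group. The log2 fold changes of miR-142a-3p and miR-142a-5p were -0.39 and -0.67, and neither was called. The defining myeloid miR-223-3p was at a mean of 1.57 CPM in the saline and 2.10 CPM in the morphine group. The sum for 4 choroid plexus and ependymal miRNAs was 1257 to 2583 against 677 to 828 CPM. Of these 4, 2 were called higher and 1 lower, the abundant miR-204-5p. Of the other lists, 1 of 4 mural cell and fibroblast miRNAs and 1 of 3 red cell miRNAs were called higher. Lower calls were 1 of 3 oligodendrocyte and 1 of 3 skeletal muscle miRNAs. The sums of these lists overlapped between the groups except for red cells (208 to 311 against 358 to 571 CPM). The oligodendrocyte call was miR-219a-5p, at 23.0 ± 35.4 CPM (SD, n = 3) against 1.73 CPM, with overlapping groups. The abundant miR-219a-2-3p was at 1673 against 1690 CPM. Without saline replicate 2, 1 of the 3 oligodendrocyte miRNAs was called higher and 0 lower. The red cell miR-144-3p was at 0 in at least 1 library, and no other marker was. The 7 neuronal miRNAs summed to 137009 to 294495 CPM in all libraries, most of it miR-9-5p and miR-128-3p. Of these 7, miR-218-5p was called higher, and the neuronal miR-124-3p was called lower, from a mean of 5796 to 1569 CPM (log2 fold change -1.88, adjusted p = 0.0195 in edgeR). No marker here tells the NAc from other brain regions, fewer cells of a type and less miRNA per cell cannot be told apart in tissue, and the part of other cells in the results was not tested.

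Among the 7 members, miR-29b-2-5p fell and miR-29c-5p rose in the morphine group. The hairpins of both lie in the chromosome 1 cluster. These criteria called 2 of the 7 members, 1 in each direction, and 19.4% of all miRNAs tested (9.68% higher and 9.68% lower). At an adjusted p under 0.05 (Benjamini-Hochberg over all miRNAs tested) the same 2 members were called, against 5.21% of all miRNAs (3.08% higher and 2.13% lower). All miRNAs tested include those with few counts. Of the 594 miRNAs kept by edgeR's filter of low counts (filterByExpr), 186 met the criteria and 56 had an adjusted p under 0.05. The same 2 members were called at each threshold in that fit. Among 258 hairpins with at least 10 counts of each arm in total, the less abundant arm met the criteria in 23.6% (10.9% higher and 12.8% lower) and the more abundant arm in 34.1% (17.8% higher and 16.3% lower). The median log2 fold change of the 7 members was -0.01, beside -0.15 over all miRNAs tested.

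**Figure D1:**
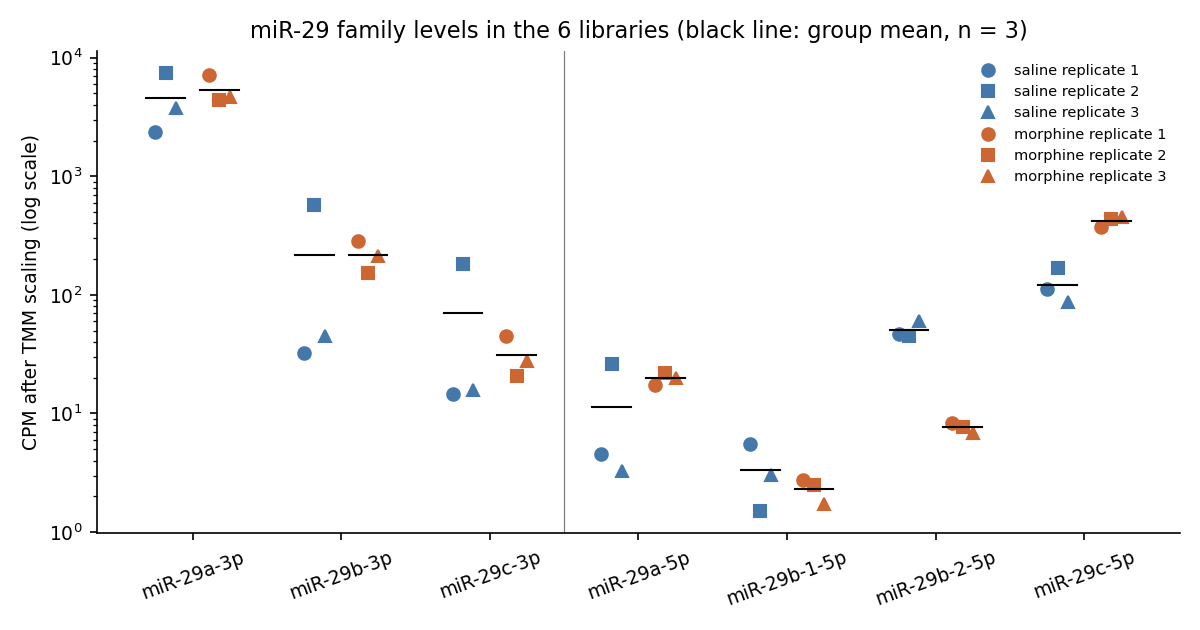
Level of each miR-29 miRNA (CPM after TMM scaling, log axis) in the 3 saline and 3 morphine libraries, with 3p arms on the left and 5p arms on the right. The groups are separated for miR-29b-2-5p and miR-29c-5p, and saline replicate 2 is the highest saline library for all 3 of the 3p arms, for miR-29a-5p and for miR-29c-5p.

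miR-29b-2-5p, the passenger of the chromosome 1 copy of miR-29b, had 255, 299 and 577 counts in saline replicates 1, 2 and 3. It had 75, 53 and 44 counts in morphine replicates 1, 2 and 3. The levels were 46.7, 44.8 and 60.5 CPM in the saline and 8.30, 7.77 and 6.91 CPM in the morphine libraries. Every morphine library was below every saline library, a separation that 22.1% of all miRNAs showed (12.2% with morphine higher and 9.90% with morphine lower). The mean was 50.7 ± 8.57 CPM (SD, n = 3) against 7.66 ± 0.700 CPM (SD, n = 3). On the fitted scale miR-29b-2-5p was 6.60-fold lower, which is -2.72 in log2 (SE 0.54, adjusted p = 0.00427 by edgeR's quasi-likelihood test). It was the miRNA with the 15th smallest p of all.

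miR-29c-5p, named as the passenger of miR-29c, went the other way. Saline replicates 1, 2 and 3 had 607, 1115 and 823 counts, and there were 3346, 2999 and 2896 counts in morphine replicates 1, 2 and 3. In CPM these were 111, 167 and 86.3 in the saline and 370, 439 and 455 in the morphine libraries, so the groups did not overlap here either. The saline mean was 122 ± 41.5 CPM (SD, n = 3), and the morphine mean 421 ± 45.1 CPM (SD, n = 3). The fold change was 3.47, or 1.79 on the log2 scale (SE 0.48, adjusted p = 0.0331 by edgeR's quasi-likelihood test). Over 17 other settings of the analysis the adjusted p of miR-29c-5p was between 1.64e-11 and 0.157, and that of miR-29b-2-5p between 2.11e-12 and 0.0960. Both met the study's criteria in all 17, with the same direction, and both lost an adjusted p under 0.05 without morphine replicate 1. The adjusted p of miR-29c-5p was also above 0.05 without morphine replicate 2 (0.113), without morphine replicate 3 (0.130), without saline replicate 3 (0.0930), with the replicate number as a block (0.131) and with a minimum of 10 counts in total (0.0565).

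**Figure D2:**
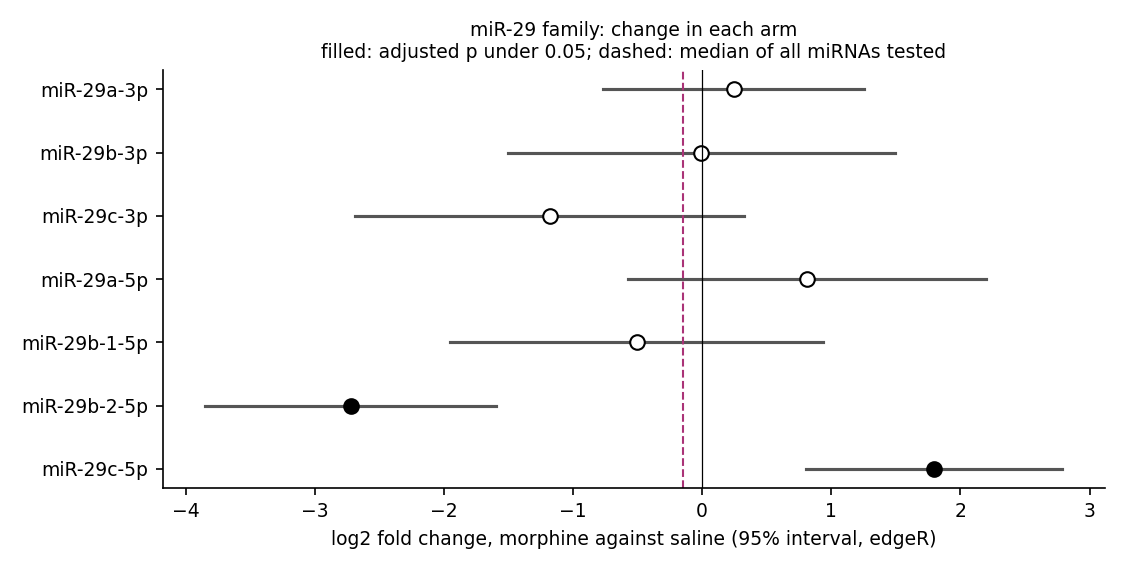
Fitted log2 fold change of each member in the morphine against the saline group, with its 95% interval from edgeR (3 libraries per group). Filled points mark miR-29b-2-5p and miR-29c-5p, with adjusted p of 0.00427 and 0.0331, and the dashed line marks the median of all miRNAs tested at -0.15.

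Because both miRNAs come from hairpins on a single strand of the same cluster, their counts were also compared within each library, where depth and scaling cancel. There were 2.38, 3.73 and 1.43 counts of miR-29c-5p for each count of miR-29b-2-5p in saline replicates 1, 2 and 3. In morphine replicates 1, 2 and 3 there were 44.6, 56.6 and 65.8. The ratio was thus higher in every morphine library than in any saline library, by a difference of 4.56 on the log2 scale, or 23.6-fold. This pair was chosen after its values were seen, and its exact two-sided permutation p of 0.1 is the smallest that 3 libraries against 3 allow. Of all miR-29 5p counts, miR-29c-5p made up 64.1% ± 6.96 (SD, n = 3) with saline training. With morphine training it made up 93.4% ± 0.642 (SD, n = 3). For miR-29b-2-5p the shares were 28.7% ± 10.4 (SD, n = 3) and 1.72% ± 0.332 (SD, n = 3).

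**Figure D3:**
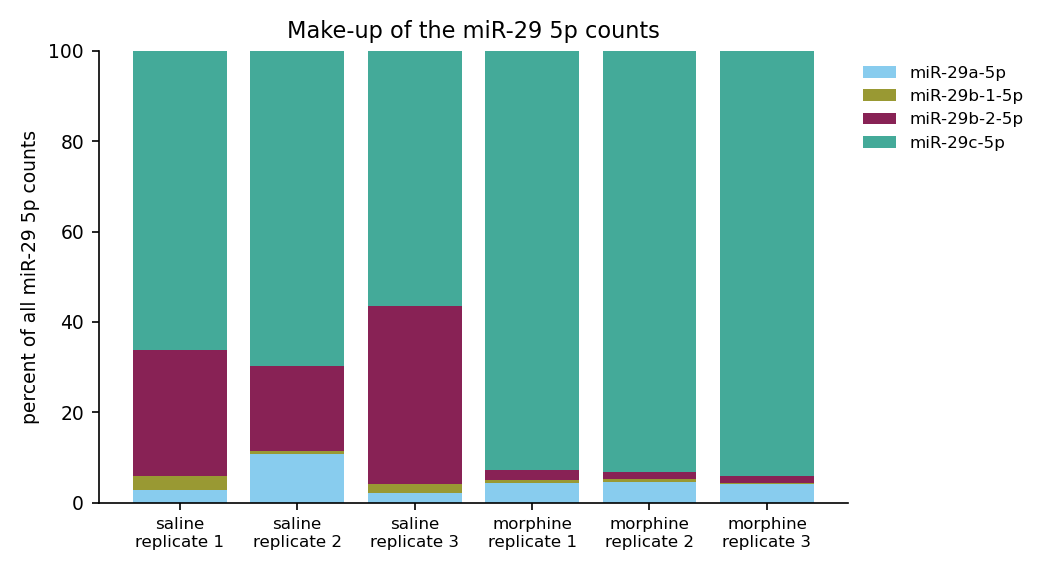
Share of the 4 miR-29 5p arms in their summed counts, as percent, in each of the 6 libraries. miR-29b-2-5p takes 18.7% to 39.5% of the 5p counts in the saline libraries and 1.43% to 2.08% in the morphine libraries, where miR-29c-5p takes 92.8% to 94.1%.

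The 5p arms of the chromosome 6 cluster did not meet the criteria. miR-29a-5p, the passenger of miR-29a, had 4.58, 25.9 and 3.25 CPM in saline replicates 1, 2 and 3 and 17.5, 21.8 and 19.9 CPM in morphine replicates 1, 2 and 3. Saline replicate 2, with 173 counts against 25 and 31 in saline replicates 1 and 3, lay above all morphine libraries, and the other saline libraries lay below them. The log2 fold change was 0.81 (95% interval -0.58 to 2.20, adjusted p = 0.526 in edgeR). miR-29b-1-5p, the passenger of the other miR-29b copy, was the least abundant member, with 30, 10 and 29 counts in the saline and 25, 17 and 11 counts in the morphine libraries. The groups overlapped, and its fitted change of -0.51 in log2 had a 95% interval from -1.95 to 0.94, with an adjusted p of 0.681 in edgeR. The change of -2.72 seen for the same arm of the other copy had a 95% interval from -3.85 to -1.60. These intervals overlapped, but overlap of intervals does not test the difference between the copies, and the fit did not test it either. With saline replicate 1 left out, miR-29b-1-5p was at 0.12 in log2.
The 5p arms of the miR-29b copies were also set against each other within each library. This compares reads of passenger strands, and the output of the hairpins themselves was not measured. Saline replicates 1, 2 and 3 held 8.50, 29.9 and 19.9 counts of miR-29b-2-5p for each of miR-29b-1-5p. Morphine replicates 1, 2 and 3 held 3, 3.12 and 4. The difference was -2.36 on the log2 scale and the groups did not overlap (exact two-sided permutation test, p = 0.1, the smallest possible, and 0.2 after adjustment over 4 such ratios). In every library of either group, miR-29b-2-5p was the more abundant.

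The 3p arms, which carry the common seed, did not meet the criteria. miR-29a-3p was by far the most abundant member and the 32nd most abundant of all miRNAs. Its levels were 2375, 7466 and 3795 CPM in saline replicates 1, 2 and 3 and 7072, 4396 and 4670 CPM in morphine replicates 1, 2 and 3. The highest library was a saline library, and the groups overlapped. The log2 fold change was 0.24 (95% interval -0.77 to 1.25, adjusted p = 0.794 in edgeR). Its share of the 3p counts was 95.8% ± 4.30 (SD, n = 3) with saline and 95.6% ± 0.564 (SD, n = 3) with morphine training.
For miR-29b-3p the levels were 32.4, 575 and 45.4 CPM in the saline libraries and 284, 153 and 214 CPM in the morphine libraries. Saline replicate 2 was above all morphine libraries, and saline replicates 1 and 3 were below all of them. The fitted log2 fold change was -0.01 (95% interval -1.50 to 1.49, adjusted p = 0.998 in edgeR), and its sign turned under 9 of 17 other settings, scaling by library totals included (0.05).
miR-29c-3p, at 14.5, 181 and 15.7 CPM in the saline and 44.8, 20.8 and 27.6 CPM in the morphine libraries, showed the same arrangement of the libraries. Its log2 fold change was -1.18 (95% interval -2.69 to 0.33, adjusted p = 0.421 in edgeR). DESeq2 returned a log2 fold change of -1.24 for miR-29c-3p but no p-value. With upper quartile scaling in edgeR the unadjusted p was 0.0225 and the study's criteria were met. Its call also hung on the saline libraries: it was lower by the criteria without saline replicate 1 (-1.57) and without saline replicate 3 (-1.56), and higher without saline replicate 2 (1.04).
The 3p arms summed to 2422, 8222 and 3856 CPM in saline replicates 1, 2 and 3 and to 7400, 4569 and 4911 CPM in morphine replicates 1, 2 and 3. The 5p arms summed to 168, 239.5 and 153 CPM against 399, 472 and 483 CPM. No test was made of these sums, and that of the 5p arms followed miR-29c-5p.

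Within a library, the guides were also set against each other. For each count of miR-29c-3p there were 2.24, 3.17 and 2.89 counts of miR-29b-3p in saline replicates 1, 2 and 3. There were 6.33, 7.33 and 7.74 in morphine replicates 1, 2 and 3. This ratio did not overlap between the groups and differed by 1.38 on the log2 scale (exact two-sided permutation test, p = 0.1, the smallest possible, and 0.2 after adjustment over 4 ratios). It was the ratio of guides in which saline replicate 2 lay near the other saline libraries, and with any library left out it was between 1.23 and 1.48. The ratios of miR-29a-3p to miR-29b-3p (difference -0.78, p = 0.4) and of miR-29a-3p to miR-29c-3p (difference 0.60, p = 0.8) overlapped between the groups in the same exact test. Both of these ratios were lowest in saline replicate 2.

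The 3p and 5p arms of a hairpin were compared in a single fit over 299 pairs of arms, which tests whether the ratio of the arms differed between the groups. The counts went against the names guide and passenger in part of the family. miR-29c-5p exceeded miR-29c-3p in 5 of 6 libraries, by 5.49-fold to 21.1-fold, and in saline replicate 2 the 3p arm had 52.0% of the counts (exact 95% interval 50.0% to 54.1%). miR-29b-2-5p exceeded miR-29b-3p in saline replicates 1 and 3, where the 3p arm had 0.694 and 0.750 counts for each 5p count. miR-29a-3p, in contrast, had 201 to 1167 counts for each count of miR-29a-5p in all libraries. These ratios are ratios of reads, and the arms differ in sequence, so they do not measure molecules directly.
By the study's thresholds, 1 of the 4 miR-29 pairs changed its arm ratio, beside 27.8% of all pairs (16.4% toward the 3p and 11.4% toward the 5p arm). The ratio of miR-29b-3p to miR-29b-2-5p was 0.694, 12.8 and 0.750 in saline replicates 1, 2 and 3 and 34.2, 19.6 and 31.0 in morphine replicates 1, 2 and 3. The groups did not overlap, a separation that 36.1% of all pairs showed. The change was 4.06 on the log2 scale (SE 1.24, unadjusted p = 0.0138, adjusted p = 0.0827 in edgeR), toward the 3p arm. Its adjusted p was between 8.47e-05 and 0.240 over 11 other settings, and the criteria were missed without saline replicate 1 and without saline replicate 3. This value joins both hairpins on the 3p side with a single hairpin on the 5p side.
For miR-29c the change pointed the other way. Saline replicates 1, 2 and 3 had 7.68, 0.921 and 5.49 counts of miR-29c-5p for each count of miR-29c-3p. Morphine replicates 1, 2 and 3 had 8.26, 21.1 and 16.5, all above the saline values. The 3p to 5p ratio differed by -2.02 on the log2 scale (SE 0.90, unadjusted p = 0.0602, adjusted p = 0.201 in edgeR), and in limma, where the change was -2.07, the unadjusted p was 0.0483. For miR-29a the change was -1.04 (SE 0.61, adjusted p = 0.309 in edgeR), and for miR-29b-3p to miR-29b-1-5p it was 1.84 (SE 1.55, adjusted p = 0.477 in edgeR). At an adjusted p under 0.05, 0 of the 4 pairs were called in edgeR and 0 in limma, beside 9.03% of all pairs in edgeR (4.35% toward the 3p and 4.68% toward the 5p arm). At an unadjusted p of at most 0.05 there was 1 in edgeR and there were 2 in limma, where 29.1% of all pairs met the criteria.

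**Figure D4:**
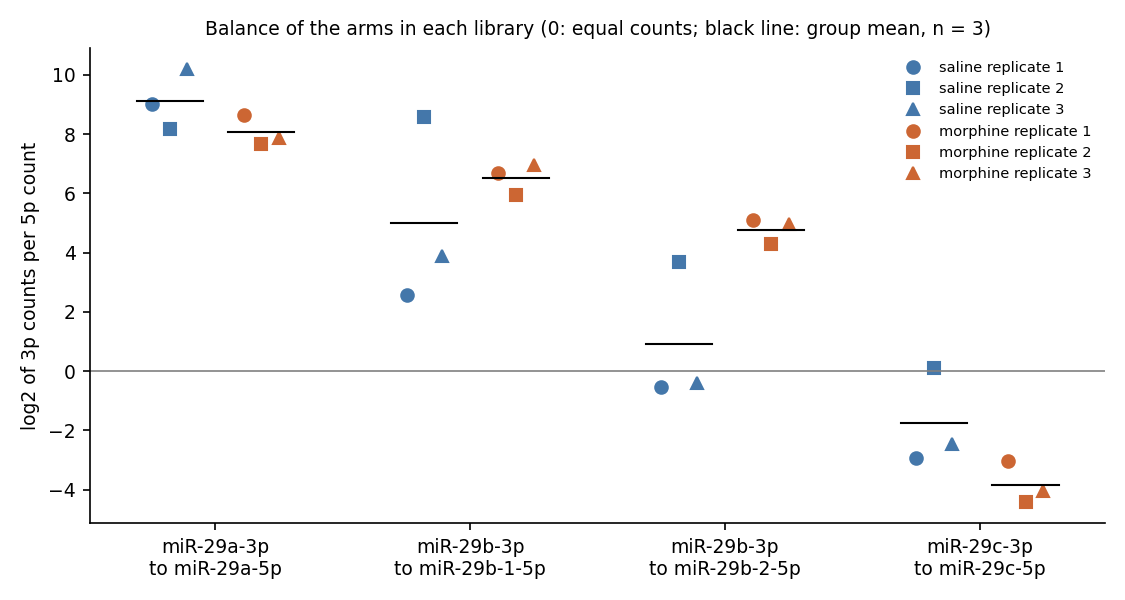
Log2 of the number of 3p counts for each 5p count in the 6 libraries, for the 4 pairs of miR-29 arms, where 0 means equal counts. The miR-29a pair lies between 7.65 and 10.2 in all libraries, the miR-29c pair lies below 0 in all libraries but saline replicate 2, and the groups are separated for miR-29b-3p to miR-29b-2-5p and for the miR-29c pair.

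Over the 17 other settings, the largest number of members was called when saline replicate 2 was left out. Without it, 6 of the 7 members met the criteria, beside 37.0% of all miRNAs tested, and the same number had an adjusted p under 0.05, beside 29.1% of all. The log2 fold change was then 0.80 for miR-29a-3p, 2.47 for miR-29b-3p, 1.04 for miR-29c-3p and 2.35 for miR-29a-5p, so that all 3 guides were higher in the morphine group. Only miR-29b-1-5p, at -0.83, was not called. miR-29b-2-5p and miR-29c-5p had log2 fold changes of -2.80 and 2.09 without that library, close to their values with it. The median over all miRNAs tested was 0.20 without it. Of the 4 arm ratios, all met the criteria without saline replicate 2, beside 52.1% of all pairs, and 3 had an adjusted p under 0.05, beside 43.6%.

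**Figure D5:**
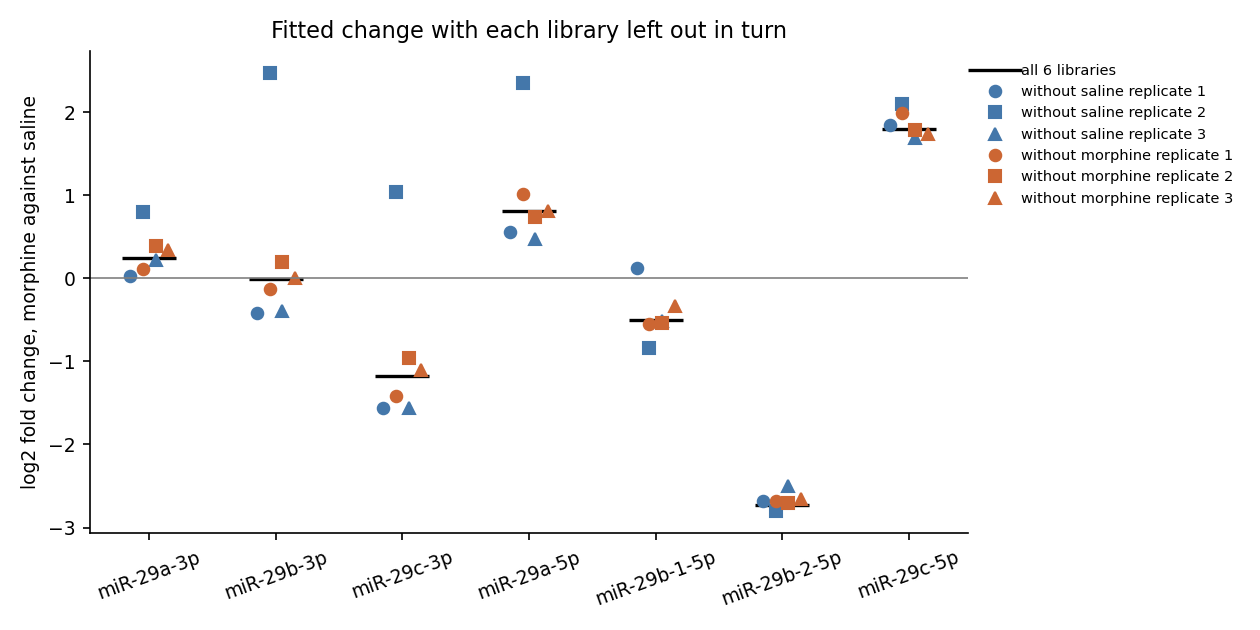
Log2 fold change of each member (morphine against saline) with all 6 libraries, as a short line, and with each library left out in turn, as points. The points without saline replicate 2 move miR-29b-3p to 2.47 and miR-29c-3p to 1.04, while miR-29b-2-5p stays between -2.80 and -2.50 and miR-29c-5p between 1.68 and 2.09.

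Other miRNAs known to target DNA methyltransferases or readers of methylated DNA were set beside the miR-29 guides. Of 9 such miRNAs, 4 were called higher and 0 lower by the study's criteria in edgeR, beside 9.68% of all miRNAs in each direction. Among the more abundant arms of hairpins, 17.8% were called higher. At an adjusted p under 0.05, 2 of the 9 were called, each higher, beside 3.08% of all miRNAs called higher. The median log2 fold change of the 9 was 0.67, with values from -0.47 (miR-143-3p) to 4.07 (miR-148a-3p), against -0.15 over all miRNAs. The list was chosen with earlier results of these data known, and no test was made over it. miR-148a-3p, which targets Dnmt1 and Dnmt3b, rose by 4.07 in log2 (adjusted p = 0.000857 in edgeR), and miR-126a-3p, an endothelial miRNA, by 2.42 (adjusted p = 0.00818 in edgeR). miR-148b-3p and miR-152-3p, of the same seed family as miR-148a-3p, met the criteria on the unadjusted p in edgeR (0.0436 and 0.0188). They missed the adjusted threshold. miR-143-3p, miR-185-5p, miR-342-3p, miR-132-3p and miR-212-3p were not called. Without saline replicate 2, 6 of the 9 were called higher and 0 lower, beside 20.9% of all miRNAs called higher in that fit.

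The miRNAs whose levels most closely followed the summed 3p and 5p levels were found by Pearson's correlation of log2 levels over the 6 libraries. They were sought among 368 other miRNAs with a mean of at least 100 counts. miR-29a-3p made up 90.8% to 98.4% of the 3p counts and miR-29c-5p 56.4% to 94.1% of the 5p counts. The sums therefore mostly follow these members and not each member of the family. The values are a description, since all points share the same 6 libraries and their scaling. The summed 3p level was most like miR-186-5p (r = 0.989), miR-27b-3p (0.986), miR-27a-3p (0.982), miR-3068-5p (0.966) and miR-3068-3p (0.957), whose log2 fold changes lay between -0.31 and 0.54. The summed 5p level was most like miR-30f (r = 0.999), miR-148a-3p (0.995), miR-30e-3p (0.992), miR-3074-2-3p (0.992) and miR-24-2-5p (0.992). The log2 fold changes of these lay between 1.31 and 4.07. The summed 5p level did not overlap between the groups, so these correlations join separate clusters of libraries.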

How the data were processed

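Small RNA counts from 3 saline and 3 morphine NAc libraries were analysed. Before counting, the authors discarded reads with adapter or quality faults, took out reads of other RNA classes and of repeats by Bowtie alignment, and matched what was left to miRBase. They deposited raw read counts per miRNA, not normalized and separately for each library. Of the 1364 miRNAs, 1281 had a miRBase name. The deposited TPM values were checked to be the counts divided by the library total and were not tested. The genome build and the miRBase release are not given in the sources used here.

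The main test was glmQLFTest of edgeR 4.0.16 (R 4.3.3) after TMM normalization, with all 6 libraries, no covariate and all miRNAs with at least 1 count. Arm ratios were tested in a fit with a term per library, a term for the arm and an arm-by-group term, over pairs with at least 10 counts in each arm. Other settings used DESeq2 1.42.0 and limma 3.58.1. Groups came from the sample records, and 0 columns were left unused. No pair of libraries had counts equal within sampling noise (smallest chi-square per degree of freedom 91.1). Intervals and floors cover counting error only for single libraries, as reads copied by PCR and not marked by molecular identifiers are not separate molecules. The named miRNAs are all members, the lists set out in the text and the 5 nearest in level to each summed arm. Members and lists were chosen with earlier results of these data known. Hairpin positions are from GENCODE vM21 (GRCm38) and sequences from RefSeq.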

Additional observations from a re-analysis of the deposited data

How the results depend on the processing

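With 17 other settings, miR-29b-2-5p stayed lower and miR-29c-5p higher by the study's criteria in all. The number of members with an adjusted p under 0.05, 2 of 7, became 1 with a minimum of 10 counts in total and with the replicate block. It was between 0 and 6 with each library left out, and the number meeting the criteria was between 2 and 6. Among all miRNAs, 71 had an adjusted p under 0.05. This became 160 with library totals, 153 with upper quartile scaling, 156 with DESeq2, 28 with a minimum of 10 counts in total, 110 with miRBase names only, 31 without near-identical rows and 32 with the replicate block. With each library left out it was 0 (without morphine replicate 1) to 386 (without saline replicate 2), and the number meeting the criteria, 264 with all libraries, was 176 to 492. Of the miRNAs that met the criteria, 50.0% were higher in the morphine group with TMM, 34.9% with library totals and 37.7% with upper quartile scaling. Library totals moved the median log2 fold change of all miRNAs to -0.40. Relative to that median, miR-29c-5p was then at 1.93 and miR-29b-2-5p at -2.69.

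The log2 fold change of miR-29b-3p turned sign to 0.053 with library totals, 0.11 with filterByExpr, 0.092 with miRBase names only, 0.050 without near-identical rows, 0.0035 without the 10 most abundant miRNAs and 1.39 with the replicate block. For miR-29c-3p it was -1.29 with upper quartile scaling and -0.026 with the replicate block. With each library left out, the log2 fold change was 0.030 to 0.80 for miR-29a-3p, 0.47 to 2.35 for miR-29a-5p, -0.83 to 0.12 for miR-29b-1-5p, -0.42 to 2.47 for miR-29b-3p and -1.57 to 1.04 for miR-29c-3p. The number of arm ratios meeting the criteria, 1 of 4, was 2 in limma with 0.5 or 5 added to each count (-2.07 and -2.07 for miR-29c). With each library left out it was 0 to 4, with 0 to 3 at an adjusted p under 0.05. The change of the arm ratio was then -1.58 to -0.51 for miR-29a, 0.38 to 3.26 for miR-29b-3p to miR-29b-1-5p, 3.15 to 5.25 for miR-29b-3p to miR-29b-2-5p and -2.67 to -1.13 for miR-29c. The difference in the log2 ratio of miR-29a-3p to miR-29c-3p was -0.16 to 1.11, and that of miR-29c-5p to miR-29a-5p, chosen after seeing the data as was the ratio of miR-29c-5p to miR-29b-2-5p, was -0.25 to 0.77. The cause of these shifts was not tested.

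The replicate numbers are shared by the groups, but same-numbered libraries had deviations that correlated at -0.23, -0.28 and 0.14, so the numbers were not taken as pairs. With the replicate block the adjusted p was 0.0309 for miR-29b-2-5p and 0.131 for miR-29c-5p. The list counts without saline replicate 2 were also chosen after seeing the data. Counting error is widest for miR-29b-1-5p, whose 10 counts in saline replicate 2 have an exact Poisson 95% interval of 4.80 to 18.4 counts.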
